A study of Mus musculus with 6 samples.

Results

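The genes described here are Selplg, which encodes the selectin ligand PSGL-1, and 6 enzymes that build the sugar it carries: Fut7, Fut4, Gcnt1, B4galt1, St3gal4 and St3gal6. They were taken as every probe set to which the array annotation gives exactly 1 gene symbol that is one of these 7, whatever its signal. That gave 13 probe sets of the 45101 on the array, with 1 each for Selplg, Fut7, B4galt1 and St3gal4, 2 each for Fut4 and Gcnt1, and 5 for St3gal6.

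PSGL-1 is a mucin-like surface protein that lets T cells tether to P-selectin and E-selectin on the wall of inflamed vessels, and in skin this is a first step of entry. The protein binds only when its O-linked glycans carry sialyl Lewis X. Gcnt1 starts the core 2 branch, B4galt1 adds galactose, St3gal4 and St3gal6 add sialic acid, and Fut7, with Fut4 as a second enzyme, adds the fucose. In T cells the scaffold is made widely, whereas the branching and fucosylating enzymes are the ones known to be regulated, and skin homing by this route is commonly set against gut homing through Ccr9 and the integrin of Itga4 and Itgb7.

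The cells were mouse CD4+ T cells, taken from spleen and from peripheral and mesenteric lymph nodes, and their RNA was hybridised to 6 oligonucleotide arrays. The 3 groups were Control, RA and Ro, with 2 arrays each. RA was read as retinoic acid, the vitamin A metabolite the title names, and Ro is left as the labels write it. Strain, age, doses of RA and Ro and the number of animals are not given in the labels, and only the label of Control replicate 2 gives a culture, of 5 days with IL-2, TGF-b1, IL-6, IL-1b, IL-23, IL-21 and TNF-a and antibodies to IL-4 and IFN-gamma. The title sets retinoic acid and the T cell genes under its control as the subject, and the comparisons below ask this of the selectin ligand genes.

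Values are MAS5 signals, a probe set's brightness in arbitrary units. Array medians ran from 16.2 to 23.7. Control replicate 2 stood apart, with correlations of 0.869 to 0.880 to the other arrays (log2 values across tested probe sets), which correlated with each other at 0.947 to 0.970. Some results of the selectin ligand genes that rest on Control are therefore also given without it. Those of the other genes are not. Of the CD4 T cell marker list, 9 of 10 genes were measured and all were bright, with a summed signal from 27021 to 37209 per array. Cd4 itself stood at 463 on Control replicate 2 and between 1141 and 1791 on the others. Whether replicates came from separate animals or cultures is not in the labels, and the p-values thus measure a spread between arrays that may be technical. In such bulk RNA, fewer cells of a type and less RNA per cell cannot be told apart.

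Selplg, the scaffold, was bright on every array, at the 99.1 to 99.3 percentile of the array. It gave 4463 and 4750 on the Control arrays, 3864 and 4131 on the RA arrays, with 4453 and 4889 on the Ro arrays. As deposited, the RA arrays were thus the lowest of the 6, by a fold of 1.17 between the means of Ro and RA. That gap between Ro and RA is of the size of the general shift between those arrays. Without centring, the median tested probe set differed by -0.21 on the log2 scale between RA and Ro, by 0.09 between RA and Control and by 0.29 between Ro and Control. All log2 differences below were therefore taken after each array was centred on its median. Centred, Selplg differed by -0.01 between RA and Ro (SE 0.35, 95% confidence interval -0.83 to 0.81), and its RA and Ro arrays overlapped. Fitted on those 4 arrays alone it was -0.00020, with the narrower interval of -0.35 to 0.35. Against Control the centred difference of Selplg was -0.30 (SE 0.35) for RA and -0.30 (SE 0.35) for Ro, with overlapping arrays. Without Control replicate 2, RA minus Control was 0.10.

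Fut7, the fucosyltransferase on which selectin binding by T cells chiefly depends, gave 62.1 and 204 on the Control arrays, 39.5 and 35.6 on the RA arrays, with 176 and 53.1 on the Ro arrays. Both RA arrays lay below the other 4, and the RA arrays were close to each other while the Control arrays were 3.29-fold and the Ro arrays 3.31-fold apart. The mean was 37.5 ± 2.75 (SD, n = 2) in RA, 115 ± 86.9 in Ro and 133 ± 101 in Control, a fold of 3.05 between Ro and RA. The centred log2 difference was -1.09 (SE 0.86) for RA minus Ro and -1.62 (SE 0.86) for RA minus Control. Neither passed, with limma adjusted p = 1.00 and 0.914. Ro minus Control was -0.53 (SE 0.86), with intermingled arrays.

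Fut4, the second fucosyltransferase able to complete the Lewis X fucose, had 2 probe sets. The one that passed the filter on dim values gave 15.8 and 32.4 in Control, 8.80 and 9.28 in RA, with 35.9 and 18.9 in Ro. Again both RA arrays were the lowest of the 6, but at these dim signals, under the 40th percentile of the array in RA, the size of the gap is uncertain, and this probe set passed the filter only through its Control and Ro arrays. The log2 difference was -1.06 (SE 0.64) for RA minus Ro and -1.20 (SE 0.64) for RA minus Control (limma adjusted p = 1.00 and 0.914). The other Fut4 probe set lay below the filter on all 6 arrays, with signals from 0.90 to 8.58, and was not tested.

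Gcnt1, the core 2 branching enzyme, had signals of 39.99 and 73.9 in Control, 17.8 and 18.6 in RA, with 88.9 and 31.8 in Ro on its brighter probe set. The other probe set gave 17.9 and 35.7, 8.92 and 14.7, and 41.9 and 20.0 in the same order. On both, the RA arrays were below the other 4, Control replicate 2 was above Control replicate 1 and Ro replicate 1 above Ro replicate 2. The brighter probe set averaged 18.2 ± 0.561 in RA, 60.4 ± 40.3 in Ro and 56.9 ± 23.98 in Control (SD, n = 2), a fold of 3.31 between Ro and RA. Its log2 difference was -1.20 (SE 0.67) for RA minus Ro and -1.54 (SE 0.67) for RA minus Control, and the second probe set gave -0.93 (SE 0.66) and -1.07 (SE 0.66). The limma adjusted p was 1.00 for both probe sets against Ro and 0.914 against Control.

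**Figure D1:**
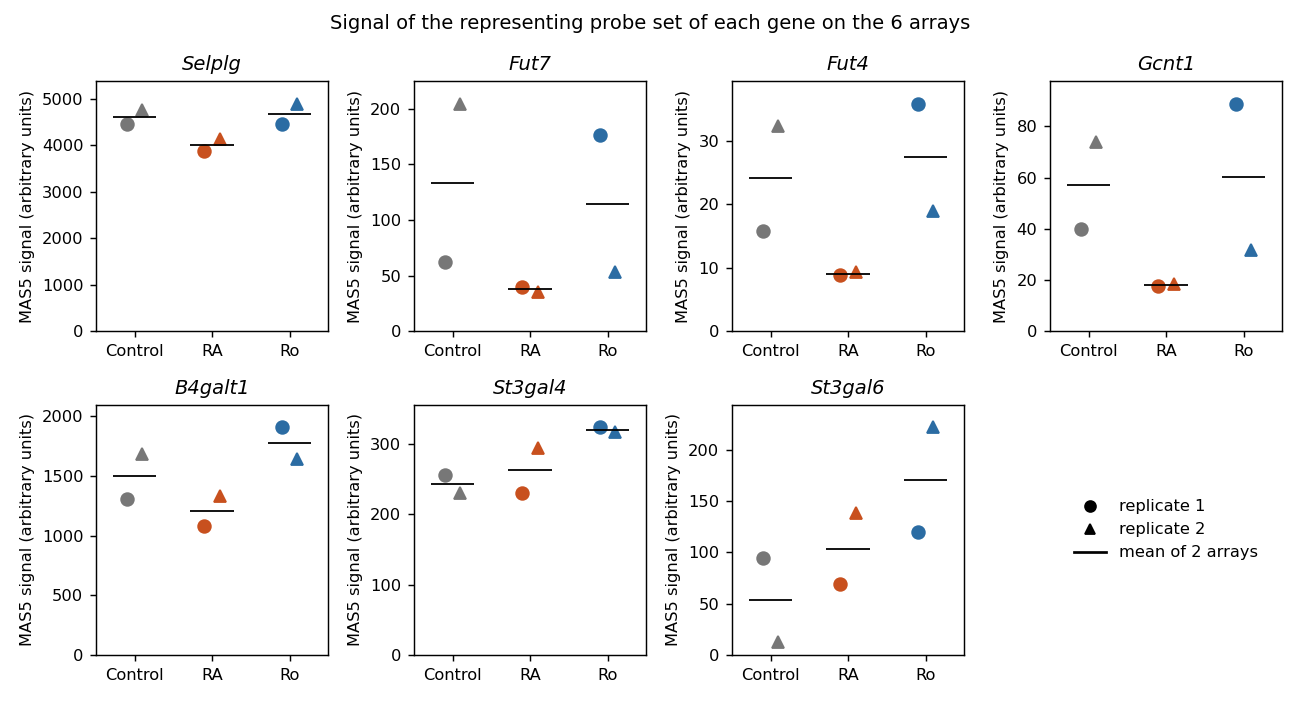
Deposited MAS5 signal (arbitrary units, axes from 0) of 1 probe set for each of the 7 genes, by group, with circles for replicate 1, triangles for replicate 2 and a bar at the mean of 2 arrays. The RA arrays of Fut7 (39.5 and 35.6), Fut4 (8.80 and 9.28) and Gcnt1 (17.8 and 18.6) lie together below all other arrays, whose replicates are far apart.

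The first annotated promoters of these 3 genes are shown because their RA arrays were the lowest of the 6 for each. They come from RefSeq (GRCm38.p6), from 250 bases before to 50 after the start, 5′ to 3′ on the gene's strand: Fut7 at chr2:25422992-25423291 on the plus strand, Gcnt1 at chr19:17372795-17373094 on the minus strand and Fut4 at chr9:14752073-14752372 on the minus strand. Capitals mark a match on either strand to 1 of 4 motifs. The GATA motif was searched as AGATAA. The T-box half-site was searched as TCACAC. The STAT motif was searched as TTCNNNGAA. The nuclear receptor half-site was searched as AGGTCA.
Fut7: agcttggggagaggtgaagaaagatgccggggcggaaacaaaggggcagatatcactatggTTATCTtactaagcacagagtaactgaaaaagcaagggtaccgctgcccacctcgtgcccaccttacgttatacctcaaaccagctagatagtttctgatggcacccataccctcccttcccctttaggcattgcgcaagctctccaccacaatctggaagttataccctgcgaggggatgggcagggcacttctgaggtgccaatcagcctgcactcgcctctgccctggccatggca
Gcnt1: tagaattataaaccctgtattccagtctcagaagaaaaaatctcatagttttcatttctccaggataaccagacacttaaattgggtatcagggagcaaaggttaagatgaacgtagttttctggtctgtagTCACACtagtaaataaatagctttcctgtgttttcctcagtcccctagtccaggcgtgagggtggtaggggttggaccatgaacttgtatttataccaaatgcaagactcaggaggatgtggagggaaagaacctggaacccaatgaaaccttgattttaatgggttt
Fut4: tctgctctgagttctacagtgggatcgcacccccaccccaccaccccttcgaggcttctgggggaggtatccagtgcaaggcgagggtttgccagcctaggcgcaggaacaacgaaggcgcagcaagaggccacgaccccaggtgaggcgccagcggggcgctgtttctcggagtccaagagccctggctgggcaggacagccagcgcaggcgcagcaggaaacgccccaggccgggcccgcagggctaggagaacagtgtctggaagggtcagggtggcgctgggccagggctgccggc
The Fut7 window held the GATA motif on the opposite strand, starting at -189, and the Gcnt1 window the T-box half-site at -118, while the Fut4 window held none of the 4. Of 32851 RefSeq windows of this length, 11.2% held the GATA letters, 14.5% the T-box, 8.3% the STAT and 16.3% the nuclear receptor letters. Among the 10 windows of the 6 members with an entry the counts were 2, 2, 1 and 0, and the remaining windows of Fut7 and Gcnt1 held no match. A match is a run of letters and was not tested as a site.

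B4galt1, which adds the galactose of the sialyl Lewis X backbone, had signals of 1304 and 1686 in Control, 1083 and 1328 in RA, with 1905 and 1638 in Ro. The RA arrays lay under both Ro arrays and overlapped with Control. The mean was 1205 ± 173 in RA and 1771 ± 189 in Ro (SD, n = 2), a fold of 1.47 between Ro and RA. The log2 difference of RA minus Ro was -0.34 (SE 0.41) and that of RA minus Control -0.40 (SE 0.41), with limma adjusted p = 1.00 and 0.914.

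St3gal4, a sialyltransferase of leukocyte selectin ligands, had like signals in all groups, with 256 and 230 in Control, 230 and 295 in RA, with 323 and 317 in Ro. The RA arrays were below the Ro arrays as deposited and overlapped with them once centred. Its log2 differences were -0.08 (SE 0.32) for RA minus Ro, 0.0029 (SE 0.32) for RA minus Control and 0.08 (SE 0.32) for Ro minus Control. The 95% confidence interval of RA minus Ro, -0.84 to 0.68, allows a change in either direction.

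St3gal6, the other sialyltransferase, had a pattern of its own. Its brightest probe set gave 95.1 and 13.0 in Control, 68.9 and 138 in RA, with 120 and 222 in Ro. The low value was on Control replicate 2, on all 4 tested probe sets: that array stood at 9.64, 10.0 and 1.02 on the other 3, against 30.6, 54.1 and 17.4 on Control replicate 1. Ro minus Control was 1.76 (SE 0.66) on the brightest probe set and 1.82 (SE 0.51), 1.08 (SE 0.40) and 1.32 (SE 0.69) on the others, with limma adjusted p = 0.694 for all 4. The first 3 had an unadjusted p of 0.0317, 0.00876 and 0.0305. Without Control replicate 2 the brightest probe set stood at 0.80 in Ro minus Control, and in RA minus Control at 0.30, from 1.25 on all arrays. RA minus Ro was -0.51 (SE 0.66) on the brightest probe set, with overlapping arrays. On the others it was -0.62 (SE 0.51) and -0.34 (SE 0.40), with both RA arrays below both Ro arrays, and -0.39 (SE 0.69), with overlap. The fifth probe set of the gene was below the filter on every array, at 0.236 to 2.52.

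**Figure D2:**
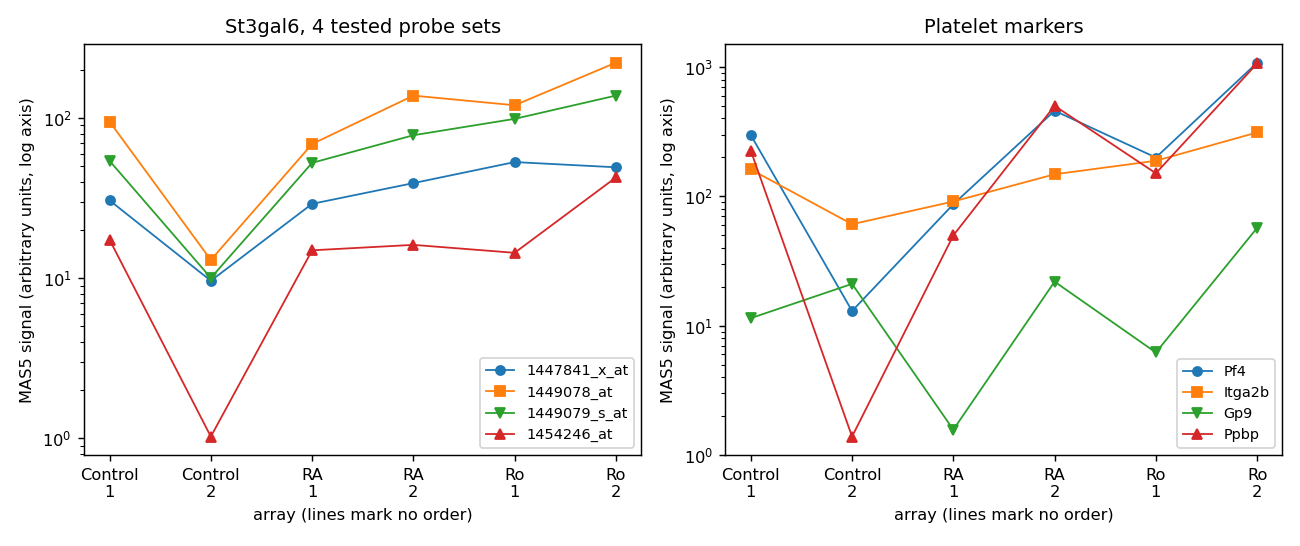
Deposited MAS5 signals (arbitrary units, log axis) of the 4 tested St3gal6 probe sets (left) and of 4 platelet markers (right) on the 6 arrays; lines join the points of a probe set and mark no order. Control replicate 2 is the lowest array of all 4 St3gal6 probe sets, and of Pf4, Ppbp and Itga2b, though not of Gp9.

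Platelet transcripts differed between the same arrays. Of the 7 genes of the platelet and erythroid list 5 were measured and 4 tested, and their summed signal was 697 and 98.4 in Control, 231 and 1131 in RA, with 545 and 2514 in Ro. Pf4, a platelet chemokine, stood at 298 and 13.0, 86.9 and 459, and 200 and 1080 in the same order. The order of the arrays by the brightest St3gal6 probe set and by this sum differed only in Control replicate 1 and Ro replicate 1, which changed places. The erythroid gene Alas2 was at 0.476 to 2.05. The part of platelet RNA in the St3gal6 signals was not tested.

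Mast cell and basophil markers, with 7 of 8 measured, had summed signals of 3672 and 157 in Control, 1480 and 1292 in RA, with 5565 and 3672 in Ro. All 7 were lower on both RA arrays than on both Ro arrays, beside 20.3% of all genes. Of these, Tpsb2, at 1.93 and 2.42 in RA, passed the filter only on Control replicate 1 and the Ro arrays. In the fit of 4 arrays 1 of these 7 markers was called lower in RA, beside 10 of all 27900 probe sets (0.0358%). The marker called was Cma1, a mast cell chymase gene, with limma adjusted p = 0.0268. On Control replicate 2 Kit, the stem cell factor receptor of mast cells, had its highest signal of the 6 arrays, 119.8, and the other 6 markers were between 3.09 and 15.6. The part of these cells in the results of the selectin ligand genes was not tested. Monocyte, macrophage and dendritic cell genes (8 of 9 measured) summed to 1703 and 174, 514 and 491, and 1055 and 399, and neutrophil genes (6 of 7) to 788 and 50.1, 328 and 217, and 536 and 112. B cell genes were dim, with sums of 91.2 to 163 over 6 of 7 genes. NK cell genes summed to 13.1 to 98.0 over 3 of 4, the 2 CD8 genes to 58.9 to 321, and the endothelial genes (5 of 5) to 87.1 to 1173. The last was mainly Pecam1, which platelets and leukocytes also express.

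**Figure D3:**
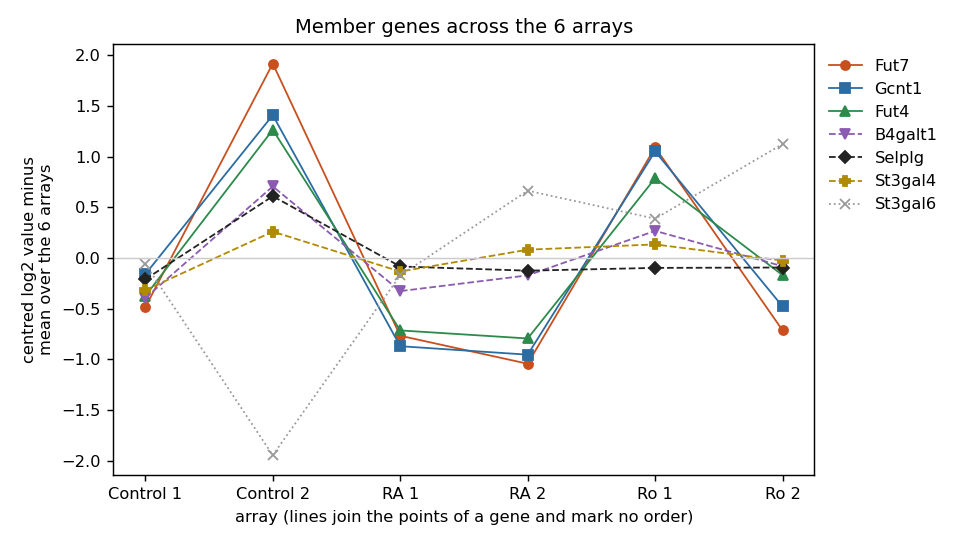
Centred log2 value of each gene minus its mean over the 6 arrays (vertical axis), by array (horizontal axis); lines join the points of a gene and mark no order. Fut7, Gcnt1 and Fut4 are high on Control 2 and Ro 1 and low on both RA arrays, Selplg and St3gal4 vary less, and St3gal6 is lowest on Control 2.

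Across the 6 arrays the 3 branching and fucosylating enzymes had nearly the same profile. Pearson's r of the centred log2 values was 0.98 between Fut7 and Gcnt1, 0.98 between Fut7 and Fut4 and 0.98 between Gcnt1 and Fut4, and over the 5 arrays without Control replicate 2 it was 0.98, 0.95 and 0.97. B4galt1 came next, with 0.92 to Fut7, or 0.79 without that array. Selplg had 0.78 to Fut7 on 6 arrays but 0.13 on 5, so that its likeness rests on Control replicate 2. St3gal6 had -0.72, and -0.09 without it. These values share the same few arrays and are a description.

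Among 10294 other genes with a mean signal above the median, those whose profile over the 6 arrays was most like that of Fut7 were Rfk (r = 0.997), the riboflavin kinase gene, Uchl1 (r = 0.990), a deubiquitinase gene, and 2610301B20Rik (r = 0.989). Uchl1 had signals of 17.6 and 91.8 in Control, 7.75 and 10.9 in RA, with 56.7 and 13.2 in Ro. For Gcnt1 they were Sco1 (r = 0.991), a copper chaperone of cytochrome oxidase, Marcksl1 (r = 0.988) and Csrp3 (r = 0.986), and Marcksl1 stood at 258 and 539, 167 and 144, and 598 and 269. On 6 arrays such values are common: 258 genes had an r above 0.9 to Fut7 and 103 to Gcnt1. For Selplg 1496 genes did, led by Crls1 (r = 0.9995), Btbd19 (r = 0.9988) and Jun (r = 0.9984), and Jun was at 923 on Control replicate 2 and between 78.4 and 114 elsewhere.

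Taken over the comparison of RA with Ro, 0 of the 11 tested member probe sets passed when limma was fitted to all 6 arrays, and neither did any other of the 29531 (0%). At an unadjusted p under 0.05 the fit held 0 members and 525 probe sets (1.78%). When limma was fitted to the 4 arrays of RA and Ro, 10 of 27900 were called (0.0358%), again 0 of the 11 members, none of which had an unadjusted p under 0.05 (4.68% of all did). The nearest were Gcnt1 and Fut4, with limma unadjusted p = 0.0574 and 0.0604 and adjusted p = 0.942 for both. The log2 difference was below 0 for 11 of 11 member probe sets, against 49.8% of all, and below -1 for 3, those of Fut7, Fut4 and Gcnt1, against 1.92%. Of the 10 without Fut4, whose probe set passed the filter only on its Control and Ro arrays, 2 were below -1. Both RA arrays lay below both Ro arrays for 7 of 11, against 18.3% of all, and above them for 0, against 16.3%. Without Fut4 the first count was 6 of 10. The St3gal6 probe sets among the 7 are marked _x_ or _s_ and do not represent the gene. By the probe set that represents each gene, 4 of the 7 genes had this order, against 20.3% of all genes. By gene, the median difference of the 7 was -0.51, beside -0.02 over the 12996 genes tested. Fut4, with its limit from the filter, is among the 4 and the 7. In the fit of 4 arrays 11 members were below 0 (49.3% of all) and 3 below -1 (1.74%). Both RA arrays lay below both Ro arrays for 7 (18.1%) and above them for 0 (16.5%). Fut4, which there passed the filter only on its Ro arrays, is among the 11, the 3 and the 7. The probe sets of a gene share their transcript and are not independent, and 2 of the 13 did not pass the filter.

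**Figure D4:**
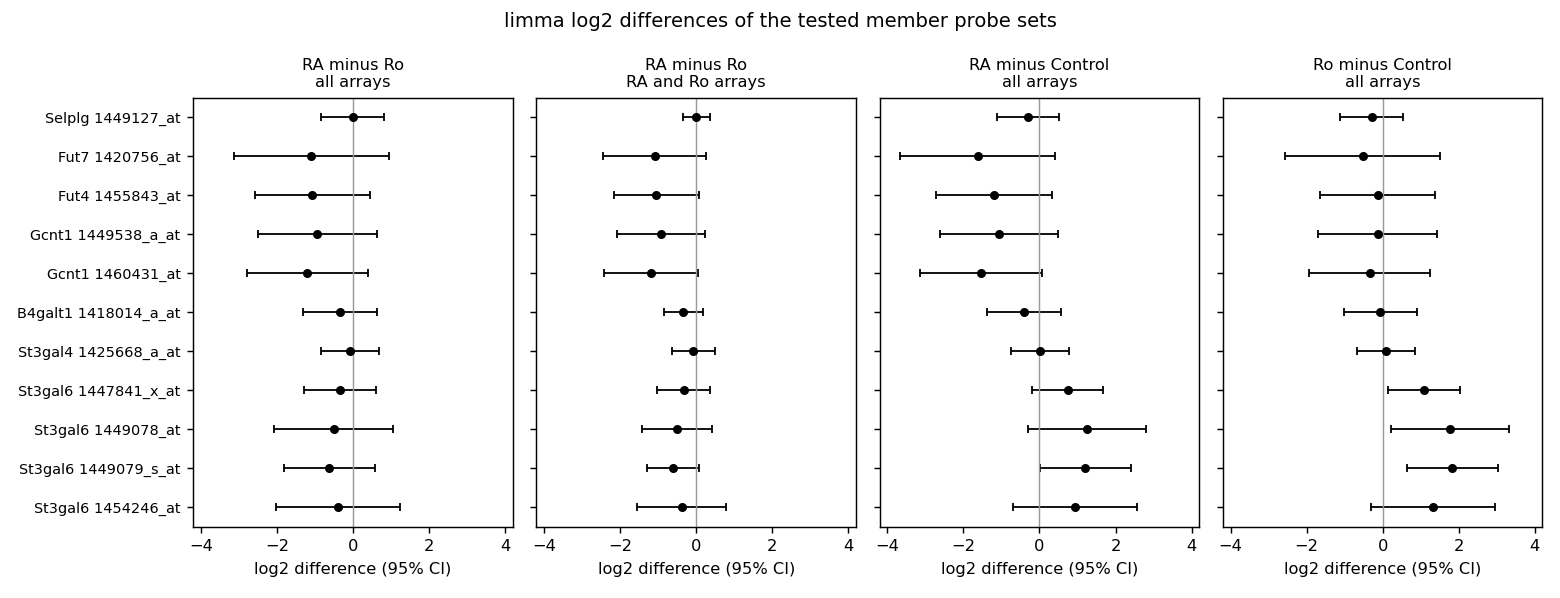
limma log2 differences (horizontal axis, points, with 95% confidence intervals) of the 11 tested member probe sets (rows) in 4 panels, RA minus Ro in the fit of all arrays and of the RA and Ro arrays, RA minus Control and Ro minus Control. Every RA minus Ro point is at or below 0, and every interval of that comparison includes 0.

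Between RA and Control, 0 of 11 members and 0 of 29531 probe sets (0%) passed in limma, with 1 member (a St3gal6 probe set, at 1.20, unadjusted p = 0.0495) and 2.29% of all at an unadjusted p under 0.05. Both RA arrays were below both Control arrays for 4 members, those of Fut7, Fut4 and Gcnt1, against 12.7% of all, and above for 3, all of St3gal6, against 16.1%. Both RA arrays were below all 4 other arrays for 4 of 11, against 4.03%, and without Control replicate 2 for 4, of the same genes, against 7.45%. Here too the filter bears on Fut4, and 3 of the other 10 remain. On the centred log2 scale of this count some gaps were narrow. Fut7 stood at -0.80 on RA replicate 1 and -0.74 on Ro replicate 2. The dimmer Gcnt1 probe set stood at -2.20 on RA replicate 2 and -2.15 on Control replicate 1. Wider were the brighter Gcnt1 probe set (-1.82 on RA replicate 1, -1.43 on Ro replicate 2) and Fut4 (-2.64 on RA replicate 1, -2.30 on Control replicate 1). The log2 difference was below 0 for 6 of 11, against 51.2%, and below -1 for 4, against 5.39%. Both RA arrays were above all 4 others for 0, against 3.67%. Between Ro and Control 0 of 11 members and 0 of 29531 (0%) passed, with 3 members, all of St3gal6, and 5.83% of all at an unadjusted p under 0.05. Both Ro arrays were above both Control arrays for 3 members, all of St3gal6, against 19.2%, and below for 0, against 16.4%. The difference was below 0 for 6, against 52.1%, and below -1 for 0, against 7.67%. RA minus Control and Ro minus Control share their Control arrays, and RA minus Ro and Ro minus Control share the Ro arrays.

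The size of these differences depended on single arrays. The RA minus Ro difference of Fut7 was -0.18 without Ro replicate 1 and -1.99 without Ro replicate 2, that of Gcnt1 -0.42 and -1.96, and that of Fut4 -0.57 and -1.54. When a Ro array is left out of the fit of only RA and Ro, the RA pair alone gives the spread, and no result is read from calls of that fit. Against Control, Fut7 stood at -2.83 without Control replicate 1 (limma adjusted p = 0.0431) and at -0.43 without Control replicate 2 (adjusted p = 1.00), Gcnt1 at -2.32 and -0.76 and Fut4 at -2.02 and -0.39. Without Control replicate 1 the fit assumes that the single Control array varies as the other groups do, and 3258 of 28930 probe sets (11.3%) were called in RA minus Control. Among them were 4 of the 11 members, 2 of St3gal6 and those of Fut7 and Selplg. Selplg was then -0.72 (adjusted p = 0.0463), but 0.10 without Control replicate 2. These values of Fut7, Gcnt1 and Fut4 with an array left out were all below 0. Their RA arrays were the lowest of all, so that leaving out an array could hardly turn the direction and is no check of it.

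**Figure D5:**
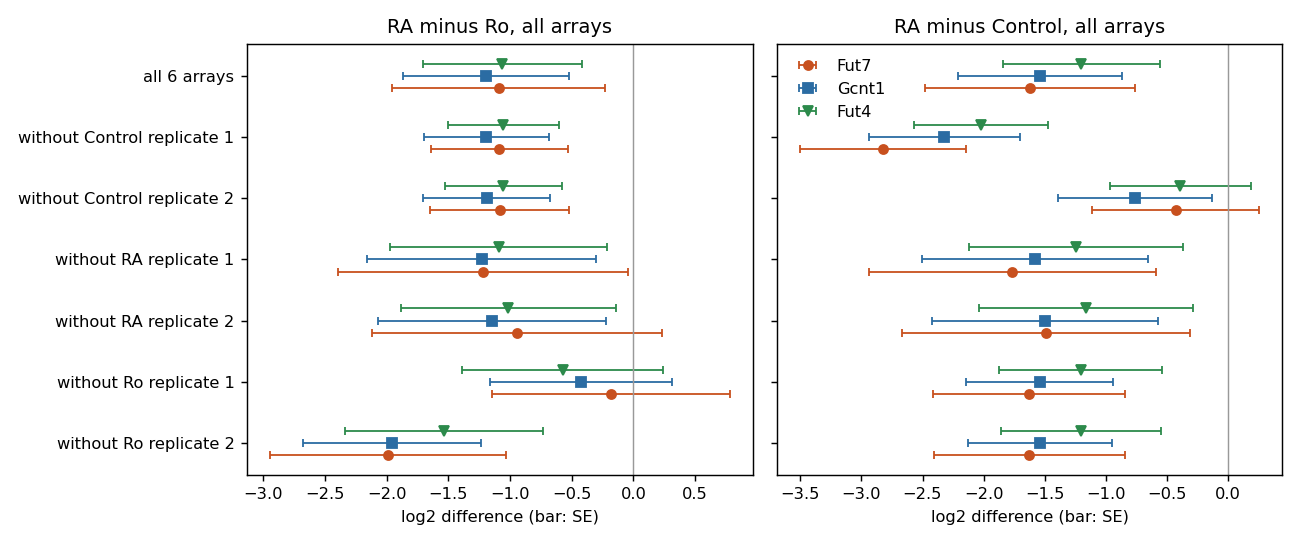
limma log2 differences (horizontal axis, bars: SE) of Fut7, Gcnt1 and Fut4 for RA minus Ro (left) and RA minus Control (right), on all 6 arrays and with each array left out (rows). All points lie below 0, nearest to it without Ro replicate 1 (-0.18 for Fut7) on the left and without Control replicate 2 (-0.39 for Fut4) on the right. As the RA arrays of these genes were the lowest, leaving out an array could hardly turn the direction.

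In the rest of the glycan pathway no gene passed between RA and Ro in either limma fit. Over all 12996 genes 52.6% were below 0, 20.3% had both RA arrays below both Ro arrays and 15.0% had them above. Of 5 tested other fucosyltransferases, none of which is known to make the selectin ligand in T cells, 4 were below 0 with a median of -0.18. Pofut1, the fucosyltransferase of Notch, stood at -0.22 and Fut8, the core fucosyltransferase of N-glycans, at -0.18, and the dim Fut10 at 0.83. Of 20 genes that start, branch or extend O-glycans 14 were below 0 (median -0.17) and 8 had both RA arrays below both Ro arrays. B3gnt5 had signals of 89.1 and 141 in RA, with 265 and 260 in Ro (log2 difference -0.99, SE 0.38, limma unadjusted p = 0.0355), and the dim B4galt5 and B4galt4 gave -1.18 and 1.13. Of 12 other sialyltransferases 7 were below 0 (median -0.05), with St3gal2 at 0.69, St6galnac3 at 0.65 and St6gal1 at -0.47.

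Sulfation of tyrosines next to the glycan is also needed for binding P-selectin. Of 8 tested sulfation genes 5 were below 0 (median -0.14). Papss2, which makes the sulfate donor PAPS, had signals of 30.4 and 2.57 in Control, 6.43 and 17.5 in RA, with 73.2 and 104 in Ro. The Ro arrays were thus above the other 4, with a RA minus Ro log2 difference of -2.48 (SE 0.68, limma unadjusted p = 0.00812, adjusted p = 1.00). Tpst1, a tyrosylprotein sulfotransferase, stood at 73.7 and 110, 47.3 and 51.9, and 132 and 90.7, with the RA arrays lowest (-0.88, SE 0.49). Chst2, a GlcNAc sulfotransferase, was 33.6 and 42.4 in RA, with 24.8 and 14.0 in Ro (1.12, SE 0.42). Of 15 genes for sugar nucleotides and their transport 8 were below 0, with a median of -0.0050 and no gene whose RA and Ro arrays were separate. The largest, Uap1, was at -0.35.

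Of the selectins, the receptors of this ligand, Selp was tested and Sele lay below the filter at 1.15 to 10.2. Selp, which encodes P-selectin, had signals of 79.0 and 293 in Control, 34.0 and 48.3 in RA, with 120 and 156 in Ro. Both RA arrays were lowest, at -1.47 (SE 0.76) against Ro and -1.94 (SE 0.76) against Control, with limma unadjusted p = 0.0943 and 0.0378 and adjusted p = 1.00 and 0.914. Of 7 tested other scaffolds that can carry selectin ligands 4 were below 0 (median -0.24). Spn, the CD43 gene, had 979 and 876 in RA, with 1367 and 1292 in Ro (-0.30, SE 0.32), Cd24a was at 0.67 and Lamp2 at -0.41. Among 9 genes of cytoplasmic partners of PSGL-1, or of the integrin LFA-1 and its partners, 5 were below 0 (median -0.08). Syk, a tyrosine kinase that signals below PSGL-1, had 20.8 and 36.4 in RA, with 68.9 and 64.8 in Ro (-0.97, SE 0.47), and the linker proteins Msn and Ezr gave -0.34 and -0.31.

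A further list held 12 genes of factors and cytokine receptors linked to Fut7 or Gcnt1 in T cells. It was not limited to genes that raise them, and includes Gata3 (-0.12, SE 0.78). In RA minus Ro 10 of the 12 were below 0, with a median of -0.69, beside 52.6% of all genes. Both RA arrays lay below both Ro arrays for 8, beside 20.3%. None of the 12 passed, and 2 had a limma unadjusted p under 0.05. Il12rb2, a chain of the interleukin 12 receptor, was 19.1 and 45.6 in RA, with 117 and 137 in Ro (-1.77, SE 0.60), and Runx3 336 and 409 in RA, with 913 and 972 in Ro (-1.12, SE 0.46). Tbx21, the T-bet gene, gave 36.8 and 185 in RA, with 223 and 299 in Ro (-1.38, SE 0.70). Il12rb1, the other chain of that receptor, had 110.3 and 352 in Control, 67.8 and 84.8 in RA, with 212 and 151 in Ro, so that its RA arrays were the lowest of the 6 (-0.99, SE 0.72). Il2ra was at 0.08 and Stat4 at 0.41, the 2 above 0. Against Control 8 of the 12 were below 0 with a median of -0.74.

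Skin homing chemokine receptors differed among themselves. Ccr8 had 52.4 and 93.1 in Control, 26.4 and 21.8 in RA, with 152 and 49.5 in Ro, the order of arrays nearly that of Fut7, with a log2 difference of -1.52 (SE 0.69) for RA minus Ro. Ccr4 had 111 and 156 in Control, 53.6 and 21.8 in RA, with 41.9 and 2.75 in Ro, with 1.44 (SE 1.01). Ccr10 did not pass the filter and was not tested, with 1.53 and 6.53 in Control, 2.00 and 4.23 in RA, and 37.0 and 9.76 in Ro. Of the 6 genes on the gut homing list 4 were above 0 in RA minus Ro (median 1.29). The list includes P2rx7, which encodes an ATP receptor and not a homing receptor. Ccr9 was at 5.69 (SE 0.30) and P2rx7 at 3.56 (SE 0.25) in limma on the 4 arrays of RA and Ro, with adjusted p = 0.0144 and 0.0262, and Itga4 at 2.51 (SE 0.43, adjusted p = 0.440). Signals of Ccr9 were 509 and 398 in RA, with 5.76 and 8.93 in Ro. In that fit Ccr9 passed the filter only on its RA arrays, and at such dim Ro signals the size of its difference is uncertain. Itgb7, the partner chain of Itga4, was at -0.18 (SE 0.36), Itgae at 0.07 (SE 1.29) and Gpr15, at 1040 on Control replicate 2 and 14.1 or less elsewhere, at -1.30 (SE 2.22) on all arrays. The difference between the gut homing and the selectin ligand genes was not tested.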

How the data were processed

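Signal intensity values of 6 arrays were used as deposited; the authors made them with MAS5, per the submitters' processing notes, and the sources used here do not give a scaling target, version or detection calls. Groups and replicate numbers were taken from the titles, RO and Ro as 1 group. After 64 control probe sets were left out, the platform annotation from GEO gave 1 gene symbol to 34945 probe sets, several to 932 and none to 9160.

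The tests used limma 3.58.1 under R 4.3.3 (lmFit, eBayes with intensity trend, two-sided, Benjamini-Hochberg adjustment over all tested probe sets, threshold 0.05) on log2(signal + 3.00), the pseudocount being the 20th percentile of all values. It makes differences of dim genes look smaller than folds of signals. Each array was centred on its median over tested probe sets, those above the 40th percentile of their array on at least 2 arrays (29531, or 27900 in the fit of 4 arrays). The residual degrees of freedom were 3 and 2. A gene was represented by its brightest tested probe set, leaving out those marked _x_ or _s_ where it had another. All members were named; of each pathway list up to 3 genes past the threshold or with the largest differences, and for 3 members the 3 genes of highest correlation. Some genes beyond that rule (Tpst1, Il12rb1, Gata3, Il2ra, Stat4, Itgb7, Itgae, Gpr15, Ccr10, Sele, Alas2, Cma1, Kit, Pf4 and Pecam1) were named after their values were seen. Members and lists were chosen with earlier results of these data known. The fit was tested on simulated data. Alternatives were 2 other pseudocounts, no centring, quantile normalization, 2 filters, no trend, the replicate number as a block, fits of only the groups compared, gene means and leaving out each array. Counts without a test under other scalings or without an array were added after seeing the data.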

Additional observations from a re-analysis of the deposited data

How the results depend on the processing

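With 2 arrays a group, 3 residual degrees of freedom and 1 Control array that stands apart, the fits can call only large differences, and dim signals such as those of Fut4 limit the size that can be given. No detection calls were available to bound them. The cause of the changes below was not tested.

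For Fut7, Gcnt1, Fut4, B4galt1 and St3gal6 no alternative tried turned the direction of RA minus Ro, and for Fut7, Gcnt1, Fut4 and St3gal6 none turned RA minus Control. For Fut7, Gcnt1 and Fut4, whose RA arrays were the lowest of all, leaving out an array could hardly do so. Over all alternatives RA minus Ro ran from -1.99 to -0.18 for Fut7, from -1.96 to -0.42 for Gcnt1 and from -1.54 to -0.51 for Fut4, and RA minus Control from -2.83 to -0.43, -2.32 to -0.76 and -2.02 to -0.39. Fut4 has no value with the filter at the 60th percentile. In all, 293 of 333 alternative values of the 7 genes kept direction and side of the threshold, 35 turned and 5 newly passed it, all 5 without Control replicate 1. Selplg in RA minus Ro was 0.0597 with the filter at the 60th percentile. St3gal4 in RA minus Control was -0.00038 with a pseudocount of 1, -0.0255 with quantile normalization, -0.0487 with that filter and -0.0043 with only the groups compared. In Ro minus Control, as deposited gave 0.0191 for Selplg, 0.18 for Fut4 and 0.25 for B4galt1, quantile normalization 0.00092 for Fut4 and -0.0252 for St3gal4, no filter 0.11 for Fut4 and 0.19 for B4galt1, and the stricter filter -0.0368 for St3gal4. Leaving out each array, RA minus Ro ran from -0.0201 to 0.0222 for Selplg and -0.18 to 0.0369 for St3gal4; RA minus Control from -0.72 to 0.10 for Selplg, -0.96 to 0.14 for B4galt1 and -0.29 to 0.28 for St3gal4; and Ro minus Control from -0.72 to 0.10 for Selplg, -1.74 to 0.66 for Fut7, -0.97 to 0.67 for Fut4, -1.13 to 0.43 for Gcnt1, -0.62 to 0.47 for B4galt1 and -0.22 to 0.35 for St3gal4.

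Counts of called probe sets in limma were 2 for RA minus Ro and 2 for RA minus Control with the pseudocount at the median of all values, against 0. With only RA and Ro fitted, the count of 10 became 4 without a filter, 0 without an intensity trend and 77 with the replicate block, where 0 members were called. Arrays of the same number share only a number: deviations correlated at 0.0050 for Control and RA, -0.03 for Control and Ro and 0.25 for RA and Ro. Leaving out each array gave 0 to 10 for RA minus Ro (at most 0.0349% of tested probe sets) and 0 to 748 with only RA and Ro fitted. The 748 (2.8%) came without Ro replicate 1 and held 0 members. Without Ro replicate 2, 2 members were called, beside 1.21% of all. In these fits the RA pair alone gives the spread, and no result is read from their calls. Counts were 0 to 3258 for RA minus Control (at most 11.3%, 0 to 4 members) and 0 to 4117 for Ro minus Control (at most 14.2%, 0 to 3 members). Both maxima came without Control replicate 1, where the single Control array is assumed to vary as the other groups do.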
